A study of Mus musculus with 8 samples.

Results

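Malat1, Neat1, Meg3, Rian, Mirg, Snhg11 and Miat are long noncoding RNA genes that are known from neurons, and their levels were compared in vagal ganglia of mice given HDM or saline. They were chosen by name: their gene identifiers in the deposited count table were matched to mouse GENCODE M21 symbols. All 7 were found among the 55335 genes of the table, and all 7 were among the 17618 genes with enough counts to be tested. The vagal ganglia hold the cell bodies of sensory neurons that run in the vagus nerve to the airways and other organs, together with glia and connective tissue. All animals were wild type (WT in the labels). The treatment is given only as HDM, an abbreviation that the labels do not expand, in a series titled for allergen-induced responses and vagal neurons that express Vip. Ganglia were taken 1.5 h after challenge 4. Each group had 4 libraries, and each library was a pool of 6 to 8 ganglia from 3 to 4 mice. A batch from 1 to 4 in the labels equals the replicate number, so that each batch held 1 HDM and 1 saline pool. The labels give no age or sex.

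Long noncoding RNAs are transcribed like messenger RNAs but do not act through an encoded protein. Malat1 and Neat1 are neighbouring nuclear RNAs: Malat1 gathers in nuclear speckles, which store splicing factors, and Neat1 is the scaffold of paraspeckles, nuclear bodies that retain RNA-binding proteins. Meg3, Rian and Mirg lie in a row in the Dlk1-Dio3 imprinted region, are transcribed from the maternal chromosome and carry many microRNAs and small nucleolar RNAs (snoRNAs) in their exons and introns. Snhg11 is a host gene of snoRNAs that is abundant in neurons. Miat, also called Gomafu, is a nuclear RNA of neurons whose repeats resemble the branch point sequence of introns and bind splicing factors.

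Some of these RNAs are recognised by short sequence elements, shown here because they set apart Malat1 and Neat1, Miat and Meg3. Sequences come from GENCODE M21 transcripts and RefSeq tables of the mouse build GRCm38 and are written 5′ to 3′ as DNA, in lower case. In the sequences of the 3′ ends, capitals mark 2 T-rich runs and the A-rich tract AAAAAGCAAAA at the end. In the mature RNAs these elements fold back into a triple helix that takes the place of a poly(A) tail. The sequence between them is the 61 bases that follow the Malat1 tract, a tRNA-like piece that is cut off by the enzymes that trim transfer RNAs. Malat1 is a single exon on the minus strand at chr19:5795690-5802672, and Neat1 is a single exon on the same strand at chr19:5824708-5845478, with a gap of 22.035 kb between them.
Malat1-201 exon, chr19:5795982-5796091, minus strand: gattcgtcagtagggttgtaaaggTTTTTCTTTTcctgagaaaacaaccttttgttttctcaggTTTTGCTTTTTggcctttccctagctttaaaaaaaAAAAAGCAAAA
Malat1-201 exon, chr19:5795921-5795981, minus strand: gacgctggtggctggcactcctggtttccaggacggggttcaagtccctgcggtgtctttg
Neat1-201 exon, chr19:5824708-5824817, minus strand: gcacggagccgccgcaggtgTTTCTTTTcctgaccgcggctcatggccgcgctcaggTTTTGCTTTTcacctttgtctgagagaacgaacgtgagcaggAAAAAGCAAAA

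The tract AAAAAGCAAAA, searched on the transcribed strand only, was found in 0.436% of 141767 annotated mouse transcripts. It stood at the very end of 9 of them. The tract was taken from the end of the long Neat1 transcript, Neat1-201, so that 1 of the 9 was fixed by this choice. In Malat1-201 it ended 292 bases before the annotated end. Snhg11-201 held 1 match within the transcript, and the longest transcripts of Meg3, Rian, Mirg and Miat held none.

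Miat-205, an RNA of 7 exons on the minus strand of chromosome 5, holds the repeat ACTAAC 11 times in 9163 bases. The 3 copies that lie closest together are shown in capitals, from an exon of Miat.
Miat-205 exon, chr5:112216750-112216813, minus strand: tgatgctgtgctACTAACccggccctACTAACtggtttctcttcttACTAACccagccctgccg
The density in Miat-205 was 1.2 copies per kb, on the transcribed strand. Among 1733 long noncoding transcripts of at least 3000 bases, 4 were at least as dense, of which 2 were transcripts of Miat itself. The cut-off was set by Miat-205, so that a match by that transcript was fixed in advance. The other members had at most 0.262 copies per kb in their longest transcripts.

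RefSeq promoter windows, from 250 bases before to 50 bases after the start, were available for 6 of the 7 genes, all but Neat1. Meg3 had 2 windows. The first is shown because it held the palindrome TGACGTCA, the consensus cAMP response element, followed by TATATAA, a match to the TATA box. Both are in capitals.
Meg3 promoter, chr12:109540746-109541045, plus strand: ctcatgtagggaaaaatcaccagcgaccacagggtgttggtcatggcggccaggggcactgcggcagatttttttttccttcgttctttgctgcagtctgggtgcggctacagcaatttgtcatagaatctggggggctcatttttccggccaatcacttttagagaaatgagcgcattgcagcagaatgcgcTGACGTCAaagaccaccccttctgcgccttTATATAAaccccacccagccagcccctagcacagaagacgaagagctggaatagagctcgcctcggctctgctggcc
TGACGTCA, which reads the same on both strands, was in 1.79% of 32851 RefSeq mouse promoter windows of this length. Among the windows of the 6 members it was only in the one shown. The second window of Meg3, chr12:109545148-109545447, held no TGACGTCA. TATATAA on the sense strand was in 2.2% of the windows. A match describes the letters and does not show that a factor binds there.

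Mature microRNAs are shown for the Dlk1-Dio3 hosts, since their genes lie inside the RNAs that were counted. In Meg3, RefSeq placed the hairpin of Mir770, in an annotated exon, and the mature miR-1906. Rian held 3 hairpins, all intronic. Mirg held 14 hairpins, 4 in annotated exons and 10 in introns, which give 26 mature microRNAs. Capitals mark the seed, bases 2 to 8, with which a microRNA pairs to its targets. Within Mirg, miR-453 and miR-496a-5p shared the seed GGUUGCC, and the other microRNAs shown each had a seed of their own among those of the hosts.
miR-770-5p in Meg3: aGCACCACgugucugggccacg
miR-370-3p in Rian: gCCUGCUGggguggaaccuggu
miR-134-5p in Mirg: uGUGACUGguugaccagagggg
miR-453 in Mirg: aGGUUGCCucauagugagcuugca
miR-496a-5p in Mirg: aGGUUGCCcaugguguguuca

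RNA of all libraries was counted per gene. Totals, in mega-counts (M), ran from 23.95 to 26.67 M for the HDM libraries and from 26.87 to 31.28 M for the saline libraries. The HDM libraries were shallower, by an exact permutation test of 2 sides with p = 0.0286, the smallest that 70 free assignments allow. The HDM library was the shallower in 4 of 4 batches, and with signs exchanged only within batches the exact permutation p was 0.125, the smallest that 16 assignments allow. Levels are given as CPM, counts scaled to a common total with TMM factors, which correct for differences in composition between libraries. Neuron markers were abundant in all libraries, with a summed level of 8 genes of 7478 to 8132 CPM in HDM and 7147 to 7413 CPM in saline. The groups did not overlap. Of all tested genes taken singly, 6.25% had all HDM libraries above all saline libraries. All listed markers of nodose and jugular neurons, Schwann cells and satellite glia were detected. In pooled tissue, fewer cells of a type and less RNA per cell cannot be told apart, and which cells held the 7 RNAs was not measured.

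As a set, the 7 RNAs took 0.922% to 1.05% of all counts of a library. By CPM, Meg3 ranked 5th and Snhg11 11th of the tested genes. Rian ranked 74th, Miat 133rd, Malat1 165th and Neat1 481st. Mirg, with a mean of 40.3 CPM, ranked 5533rd, so the word abundant describes 6 of the 7 better than it does Mirg. Per kb of exon, which allows levels to be compared between genes, the order was different. Snhg11 was first with a mean of 309.8 CPM per kb, above Meg3 with 259 CPM per kb in 8 of 8 libraries. Malat1 followed with 86.4 CPM per kb and Miat with 74.2 CPM per kb, and these neighbours overlapped: Malat1 ranged from 74.5 to 95.2 and Miat from 62.2 to 82.3 CPM per kb, with Malat1 higher in 7 of 8 libraries. Rian at 32.8, Neat1 at 15.0 and Mirg at 5.52 CPM per kb stood in that order in 8 of 8 libraries. The lengths are the summed exon lengths deposited with the counts, from 6983 bases for Malat1 to 31981 bases for Rian, and a length that joins many transcripts lowers the level per kb.

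**Figure D1:**
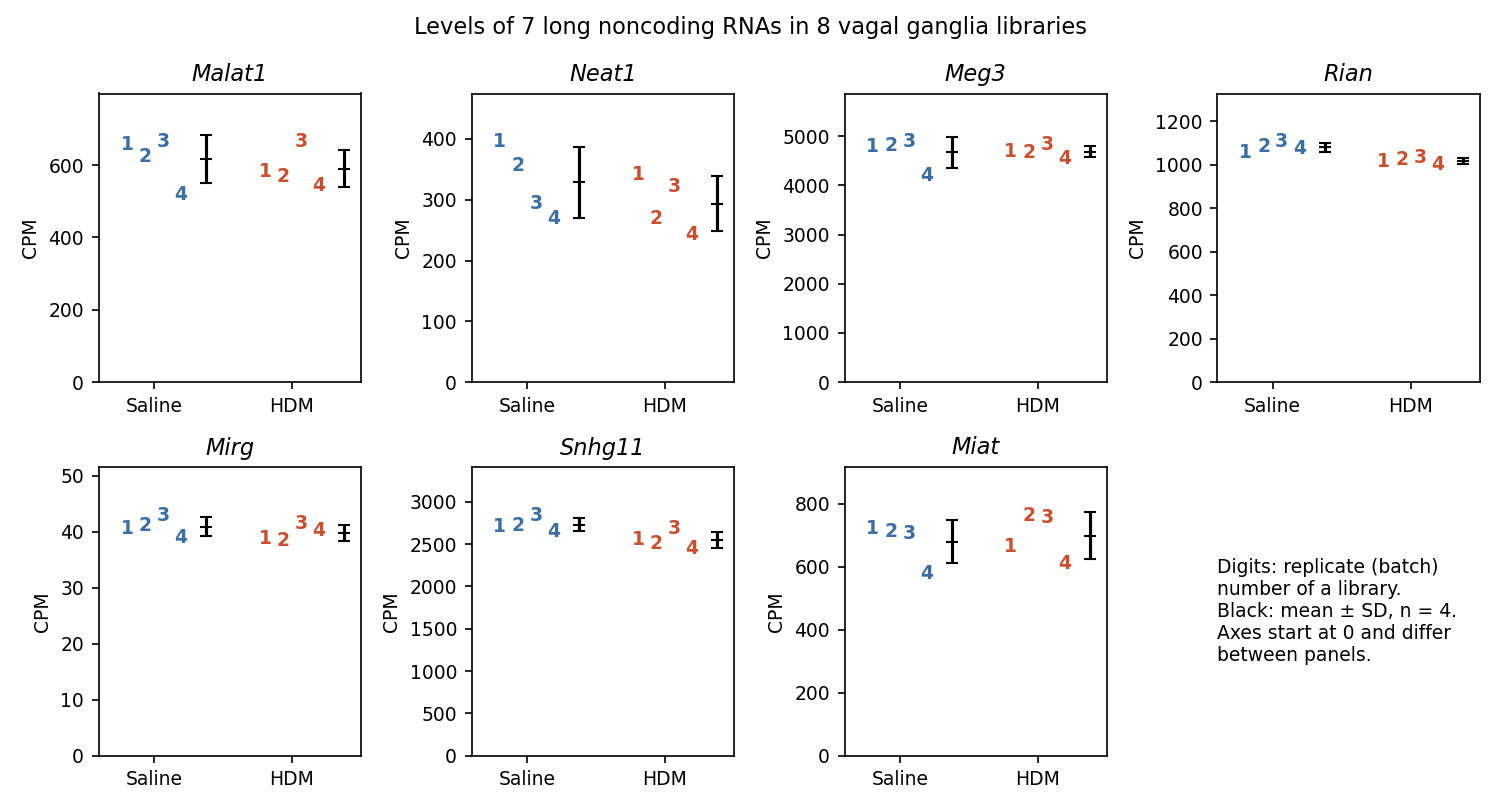
Level of each long noncoding RNA in CPM (vertical axes, starting at 0) in the 4 saline (blue) and 4 HDM (red) libraries, each drawn as its replicate number, with mean ± SD in black. The groups overlap for every RNA but Rian, whose HDM libraries all lie below the saline libraries by a small margin.

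None of the 7 RNAs was called between HDM and saline. With edgeR's quasi-likelihood test and Benjamini-Hochberg adjustment over all tested genes, 0 of 7 had an adjusted p under 0.05, against 1.38% of all tested genes (244 of 17618). The called genes were 216 higher and 28 lower in HDM, or 1.23% and 0.159% of those tested. At an unadjusted p under 0.05 the test took 1 of the 7, Snhg11, against 18.1% of all tested genes. With the replicate number as a block, DESeq2 and limma-voom, 0 of 7 were called as well, with 3, 2 and 2 of the 7 at an unadjusted p under 0.05. In those fits 4.05% (3.01% higher and 1.03% lower), 7.38% and 1.21% of the genes were called, and 20.9%, 16.8% and 18% had an unadjusted p under 0.05. The 7.38% of DESeq2 is over the 11810 genes to which it gave an adjusted p, and the other shares are over all tested genes or, for its unadjusted p, 17617. The bounds of the 95% confidence intervals of the fold, HDM over saline, lay between 0.749 and 1.16 over the 7 RNAs. The intervals thus exclude a change of 1.5-fold in either direction for each of them. They do not show that the groups were the same.

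The log2 fold change was negative for 5 of the 7 RNAs, against 51.5% of all tested genes and 75.8% of the long noncoding genes of at least 10 CPM. After a correction for GC content, described with Rian, it was negative for 4 of 7. The median log2 fold change was −0.06, against −0.0055 over all tested genes and −0.05 over the 1479 tested genes of a long noncoding biotype. Only Rian and Snhg11 were lower in HDM in 4 of 4 batches, a pattern that 12.8% of all tested genes shared. Rian alone had every HDM library below every saline library, as did 4.39% of all tested genes.

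**Figure D2:**
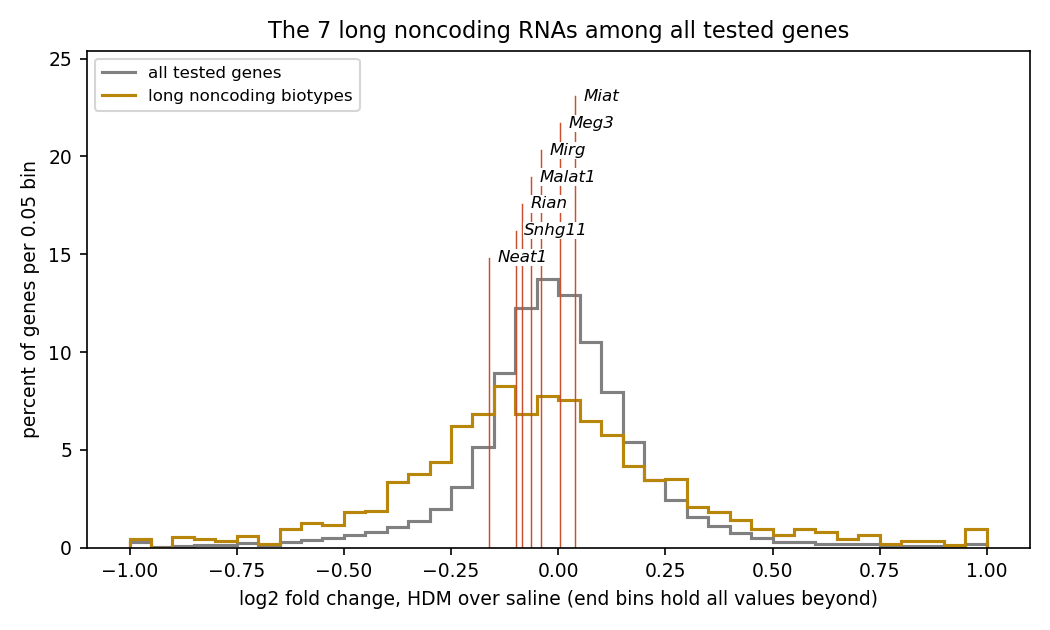
Percent of genes (vertical axis) by log2 fold change, HDM over saline (horizontal axis, bins of 0.05, end bins holding all values beyond), for all tested genes in grey and those of a long noncoding biotype in gold. Red lines mark the 7 RNAs, which sit between −0.16 for Neat1 and 0.04 for Miat, within the main body of both curves.

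Malat1, the speckle RNA, measured 584, 568, 664 and 545 CPM in HDM replicates 1 to 4. The saline replicates measured 658, 623, 665 and 520 CPM. Replicate 4 was the lowest and replicate 3 the highest of both groups, and the groups overlapped over most of their range. The means were 590.3 ± 51.9 and 616.5 ± 66.8 CPM (SD, n = 4 each). The log2 fold change was −0.06 (SE 0.08, edgeR adjusted p = 0.713), with HDM lower in 3 of 4 batches. Malat1 varied more between replicates than most genes of like abundance: its coefficient of variation, averaged over the groups, was 9.81%, and 96.2% of 448 such genes had a lower one.

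Neat1, the paraspeckle scaffold, measured 342, 269, 321 and 244 CPM in HDM. In saline it measured 396, 357, 294 and 268 CPM. Replicate 1 was highest and replicate 4 lowest in both groups, and the groups overlapped. The log2 fold change of −0.16 was the furthest from 0 among the 7, but so was its SE of 0.12, and the adjusted p of edgeR was 0.503. With the replicate block the SE was 0.07 and the edgeR adjusted p 0.226. Neat1 was the most variable of the 7, with a coefficient of variation of 16.6%, above that of 99.7% of 1188 genes of like abundance. In the 8 libraries Neat1 stood at 44.1% to 60.2% of the Malat1 CPM, with means of 49.7 ± 6.06% in HDM and 53.3 ± 7.05% in saline. The counts are per gene, so the short polyadenylated Neat1 RNA and the long one that builds paraspeckles were counted together. Malat1 and the long Neat1 RNA lack a poly(A) tail, and the libraries were made with an mRNA kit, so their counts may hold only part of these molecules.

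Other genes on or near the nuclear-body RNAs were few in counts. The predicted gene Gm37376 lies on the opposite strand, wholly inside the Malat1 exon, at chr19:5801941-5802393. It held 142, 66, 58 and 27 counts in HDM replicates 1 to 4 and 28, 47, 41 and 33 in saline, against 13952 to 19554 counts for Malat1. Without regard to strand each of its reads would match both genes, so its low but nonzero counts point to counting by strand. Gm27694, a small RNA gene on the same strand within the exon, had 0 counts in all libraries, as did 3 such genes in Neat1.

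Proteins that work with these RNAs showed few differences. Of 28 paraspeckle proteins, all tested, edgeR called 1 higher and 0 lower, with a median log2 fold change of 0.01. The called gene was Smarca4, a chromatin remodelling ATPase that also binds paraspeckles. It measured 118, 109.8, 107 and 116 CPM in HDM and 86.6, 96.8, 92.9 and 97.0 CPM in saline. All HDM libraries were above all saline libraries, as for 6.25% of all tested genes. Smarca4 rose by 0.27 on the log2 scale (SE 0.05, edgeR adjusted p = 0.0234). After a correction for GC content, its log2 fold change was 0.19 with an edgeR adjusted p of 0.199. No gene of the table was called under that correction, nor without HDM replicate 1, HDM replicate 2 or saline replicate 3. With 1 library left out at a time, the log2 fold change of Smarca4 stayed between 0.23 and 0.30, and edgeR called it in 3 of 8 such fits. The blocked fits were not repeated without single libraries. With the replicate block Taf15, an RNA-binding protein, was also called (log2 fold change 0.23, edgeR adjusted p = 0.044 with the block, 0.0865 without and 0.0923 with the block and the GC correction). The essential paraspeckle proteins Nono and Sfpq had log2 fold changes of 0.0069 and 0.06 and edgeR adjusted p of 0.947 and 0.467.

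Among 28 proteins of nuclear speckles and splicing, 0 were called by edgeR, and 9 had an unadjusted p under 0.05, against 18.1% of all tested genes. With the block 2 were called higher and 1 lower, against 3.01% and 1.03% of all tested genes. The higher ones were Srsf4, a splicing factor of the SR family (log2 fold change 0.25, edgeR adjusted p = 0.0175 with the block and 0.0544 without), and Acin1, a protein of the exon junction (0.18, 0.0433 with the block). The lower one was Clk1, a kinase of SR proteins (−0.19, 0.0216 with the block and 0.0673 without). None of the 3 was called with the block and the GC correction, where Srsf4 was at 0.21 (edgeR adjusted p = 0.081), Acin1 at 0.12 (0.176) and Clk1 at −0.10 (0.321). The SR proteins Srsf3 and Srsf7 had log2 fold changes of −0.13 and −0.14 and edgeR adjusted p of 0.0972 and 0.0984. Both had every HDM library below every saline library, as did 4.39% of all tested genes. After the GC correction they were at −0.05 and −0.06 (0.692 and 0.588). The list's median was −0.03, beside −0.0055 for all tested genes, and 0.01 after the GC correction. Of 21 factors that process the Malat1 end or write and read the m6A mark, which Malat1 carries, edgeR called 0, with 3 at an unadjusted p under 0.05 and with the block also 0. For Elac2, the enzyme that cuts the tRNA-like end, the value was 0.05 on the log2 scale (edgeR adjusted p = 0.727). Zc3h13, a subunit of the m6A writer, had 0.16 (0.0828), Mettl14, a partner in its catalytic core, 0.11 (0.280), Rpp14, listed with RNase P, −0.13 (0.203), and Ythdc1, a nuclear m6A reader, −0.10 (0.238).

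Meg3, the first gene of the maternal RNAs, spans chr12:109541001-109571726 on the plus strand. It measured 4684, 4663, 4837 and 4554 CPM in HDM. In saline it measured 4789, 4805, 4891 and 4211 CPM. Saline replicate 4 lay well below the other 3 saline libraries, and the HDM libraries all fell inside the saline range. The means were 4685 ± 117 CPM in HDM and 4674 ± 312 CPM in saline (SD, n = 4). Meg3 thus had a log2 fold change of 0.0034 (SE 0.05, edgeR adjusted p = 0.981), and without saline replicate 4 it was −0.05 (0.621).

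Rian, the next RNA at 32.1 kb from the end of Meg3, hosts a large cluster of C/D snoRNAs. Many members of this class guide chemical modification of other RNAs, and what this cluster does was not tested. It spans chr12:109603808-109661716. It measured 1015, 1025, 1034.5 and 1003 CPM in HDM. It measured 1057, 1083, 1107 and 1077 CPM in saline. Every HDM library was below every saline library, although the highest HDM and the lowest saline library were close. Rian had a log2 fold change of −0.08 (SE 0.04) with an adjusted p of 0.276 by edgeR, and the differences within batches 1 to 4 were −0.06, −0.08, −0.10 and −0.10 on the log2 scale. With the block the edgeR adjusted p was 0.185. Rian was the steadiest of the 7: its coefficient of variation was 1.62%, and 0.513% of 195 genes of like abundance had a lower one.

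The sign of the Rian difference changed with a correction for GC content. The longest Rian transcript has a GC content of 35.8%, the lowest of the 7. The mean GC content of the counted genes, weighted by counts, was 48.8% to 48.9% in HDM and 48.4% to 48.7% in saline, so that the groups did not overlap. After the correction, made in each library, the log2 fold change of Rian was 0.02 (SE 0.04, edgeR adjusted p = 0.917), and after one for length it was 0.0041. The source of this difference between the libraries was not tested.

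Mirg, the last RNA of the row, spans chr12:109729764-109749460 and starts 68.0 kb after the end of Rian. It measured 38.7, 38.4, 41.4 and 40.3 CPM in HDM. It measured 40.5, 41.1, 43.0 and 38.9 CPM in saline. The ranges overlapped, with replicate 3 highest in both groups. The log2 fold change was −0.04 (SE 0.05, edgeR adjusted p = 0.707), with HDM lower in 3 of 4 batches.

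The 3 RNAs stepped down in level along the chromosome. Per kb of exon the means were 259 CPM for Meg3, 32.8 for Rian and 5.52 for Mirg. Within a library, Rian stood at 21.4% to 22.02% of the Meg3 CPM in HDM and at 22.1% to 25.6% in saline. Every saline library was above every HDM library, by a small margin, and how often other gene pairs separate so was not counted. After the GC correction Rian and Meg3 had the same log2 fold change of 0.016. The saline mean of 23.2 ± 1.60% owed its spread to replicate 4 with 25.6%, the library in which Meg3 was low. Mirg stood at 0.848 ± 0.0290% of the Meg3 CPM in HDM and at 0.876 ± 0.0345% in saline, with overlapping libraries. Although Meg3 and Rian are neighbours on 1 strand, their log2 CPM over the 8 libraries had a Pearson correlation of 0.12, which was 0.37 after the group means were taken out. That of Meg3 with Malat1, on another chromosome, was 0.90.

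**Figure D3:**
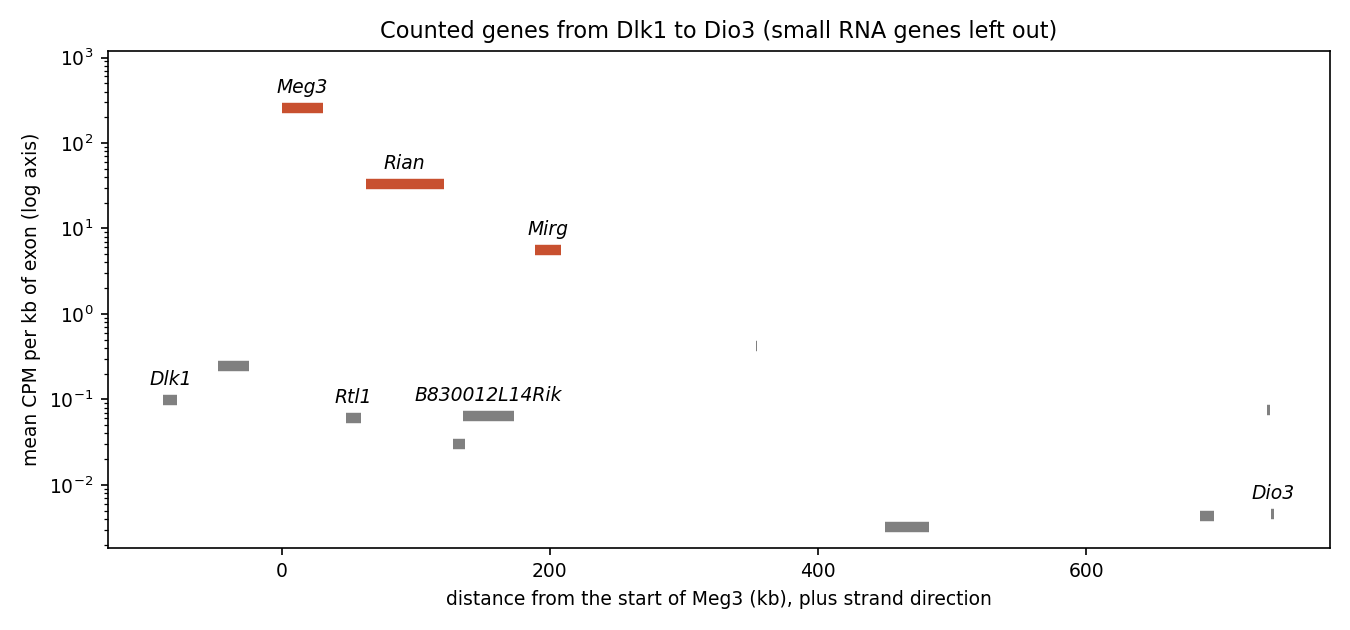
Mean level in CPM per kb of exon (vertical log axis) of each counted gene from Dlk1 to Dio3, small RNA genes left out, drawn from its start to its end in kb from the start of Meg3 (horizontal axis). Meg3, Rian and Mirg, in red, step down from 259 to 32.8 to 5.52 CPM per kb, and the labelled genes in grey lie under 0.1 CPM per kb.

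The protein-coding genes of the imprinted region, which are transcribed from the paternal chromosome, were nearly silent. Dlk1, a membrane ligand related to the Notch ligands, had 5 to 40 counts per library. Rtl1, a retrotransposon-derived gene on the strand opposite to the maternal RNAs, had 8 to 13 counts. Dio3, a deiodinase of thyroid hormone, had at most 1 count in a library, below the floor of 3 counts that a library with no count would allow. Of the 10 genes listed for the region and its flanks, 9 were tested, and edgeR called 1 higher and 0 lower. The called gene was Begain, a synaptic protein gene upstream of Dlk1. It measured 26.0, 23.0, 25.3 and 30.1 CPM in HDM and 18.6, 22.6, 18.98 and 19.8 CPM in saline. Its log2 fold change was 0.38 (SE 0.09, edgeR adjusted p = 0.0468), and 0.24 with an edgeR adjusted p of 0.274 after the GC correction. The call was close to the threshold: it held in 6 of 20 alternatives, 1 of them among the 8 fits that left out a library, where the log2 fold change ran from 0.31 to 0.45. Dync1h1, the heavy chain of dynein, Wars, a tRNA synthetase, and the noncoding gene B830012L14Rik had log2 fold changes of 0.11, 0.13 and −0.54 with edgeR adjusted p of 0.305, 0.193 and 0.314.

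Counts on the small RNA genes of the region were close to 0, in libraries made to hold mRNA. The 67 microRNA genes from Dlk1 to Dio3 held 1222 counts in all 8 libraries together, and 5 passed the filter on low counts. The 23 snoRNA genes held 56 counts, of which 53 were on Gm24564, inside Rian. Mir453 held 93 counts and Mir134 0. Such counts do not measure the mature microRNAs printed above.

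Snhg11, a spliced snoRNA host on chromosome 2, spans chr2:158375638-158386145 on the plus strand. GENCODE M21 gives it a protein-coding biotype, and RefSeq lists it as noncoding. It measured 2552, 2506, 2685 and 2452 CPM in HDM. It measured 2707, 2720.3, 2842 and 2652 CPM in saline. Only HDM replicate 3 lay above the lowest saline library, and in each batch the HDM pool was the lower one. The means were 2549 ± 99.8 and 2730.3 ± 80.3 CPM (SD, n = 4). HDM was lower by a log2 fold change of −0.10 (SE 0.04, 95% confidence interval −0.19 to −0.0037), with an adjusted p of 0.258 by edgeR. With the block the edgeR adjusted p was 0.113, and after the GC correction the log2 fold change was −0.04 with an edgeR adjusted p of 0.731.

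Over both groups together, Snhg11 and Rian were high where the neuron markers were low. Over the 8 libraries, the log2 CPM of Snhg11 and the summed neuron marker level had a Pearson correlation of −0.95, and that of Rian −0.87. Both the neuron markers and Rian separated the groups without overlap, and Snhg11 nearly did. These correlations thus hold the group difference itself, and correlations with the marker lists within groups were not computed. The other RNAs of the set were also negative with the neuron markers, from −0.65 for Mirg to −0.16 for Miat. With nodose neuron markers all of the RNAs were negative, from −0.86 for Malat1 to −0.40 for Rian, with −0.77 for Miat. With jugular neuron markers the signs were mixed. The values there were −0.39 for Neat1, −0.14 for Meg3 and −0.02 for Malat1. They were 0.08 for Miat, 0.22 for Mirg, 0.37 for Snhg11 and 0.51 for Rian. The highest positive values over all marker lists were 0.81 for Neat1 with fibroblast markers and 0.73 for Miat with satellite glia markers. These last values were picked as extremes. The measures of each pair share a library and its depth, so these values are a description. The part of cell composition in the differences of Snhg11 and Rian was not tested. Of the 8 neuron markers edgeR called 1, Prph, an intermediate filament of sensory neurons, with a log2 fold change of 0.26 (adjusted p = 0.0219), and 0.14 (0.215) after the GC correction. With the block it called 3 higher, adding Tubb3 and Uchl1, against 3.01% of all tested genes. Of the 8 markers 2 had a negative log2 fold change, and the median was 0.12, or 0.08 after the GC correction. Of the 6 Schwann cell markers edgeR called 2 lower, against 0.159% of all tested genes, among them Pmp22 with a log2 fold change of −0.23. The 4 markers of sympathetic neurons summed to 779 CPM in HDM replicate 4, to 286 to 335 CPM in the other HDM libraries and to 160 to 359 CPM in saline. Those of red blood cells summed to 239.6 CPM in saline replicate 1, to 71.1 to 74.0 CPM in the other saline libraries and to 44.3 to 75.8 CPM in HDM.

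Other snoRNA hosts gave no call. Of 20 listed, 17 were in the table and 16 were tested. EdgeR called 0, with 1 at an unadjusted p under 0.05, and with the block it also called 0. The median log2 fold change was −0.01. The gene with an unadjusted p under 0.05 was Snhg1, with 5.77 ± 0.845 CPM in HDM against 7.51 ± 0.809 CPM in the saline libraries (log2 fold change −0.38, edgeR adjusted p = 0.130). Gas5, a growth arrest RNA and by level the first of those named, had 65.1 ± 4.38 and 68.7 ± 4.21 CPM (−0.08, edgeR adjusted p = 0.505). Snhg11, at a mean of 2639 CPM, was far above both. Snhg3 and Snhg12, named for their p, had log2 fold changes of −0.25 and −0.10 with edgeR adjusted p of 0.427 and 0.697.

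Miat spans chr5:112213228-112229395 on the minus strand. It measured 664, 765, 756 and 612 CPM in HDM. It measured 722, 713, 707 and 578 CPM in saline. Replicate 4 was the lowest of both groups, in saline well apart from the other 3, and the groups overlapped. Miat had a log2 fold change of 0.04 (SE 0.08, edgeR adjusted p = 0.834), with HDM higher in 3 of 4 batches. Without saline replicate 4 it was −0.03, and without HDM replicate 2 it was −0.0062. Its coefficient of variation of 10.3% was above that of 97.0% of 362 genes of like abundance. Gm26953, a predicted gene on the opposite strand that overlaps 13935 bases of Miat, held 22 to 62 counts per library, against 15871 to 22365 for Miat.

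The 3 splicing factors listed as binding Miat gave no call by edgeR, with or without the block. Sf1, which recognises the branch point, measured 116 ± 3.48 CPM in HDM against 114 ± 5.30 CPM in saline (difference 0.02 on the log2 scale, edgeR adjusted p = 0.876). Qk, an RNA-binding protein of glia, measured 218 ± 19.7 and 250.1 ± 17.9 CPM (−0.20, 0.138). It was lower in HDM in 4 of 4 batches, as were 12.8% of all tested genes. Celf3, a splicing regulator of neurons, measured 87.8 ± 11.4 and 79.8 ± 9.11 CPM (0.14, 0.442).

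**Figure D4:**
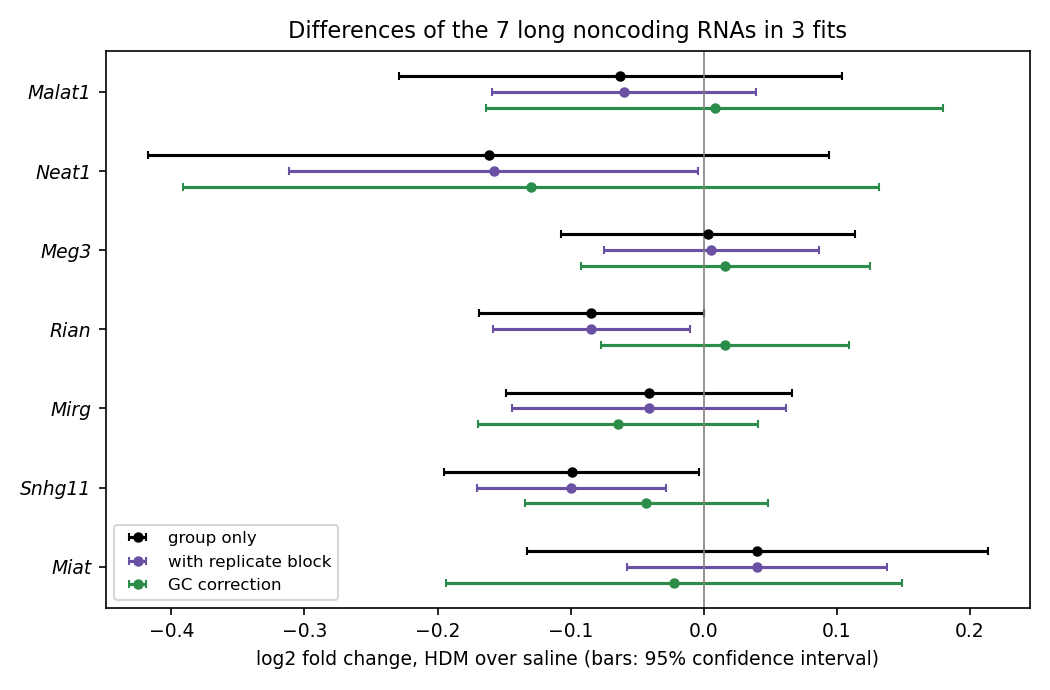
Log2 fold change, HDM over saline (horizontal axis), of each long noncoding RNA with its 95% confidence interval, from edgeR with group only (black), with the replicate block (purple) and with the GC correction (green). The block narrows the intervals of all 7 RNAs, most for Neat1, Malat1 and Miat. With it those of Neat1 (−0.31 to −0.0045), Rian (−0.16 to −0.01) and Snhg11 (−0.17 to −0.03) lie below 0, though none is called. The GC correction moves Rian from −0.08 to 0.02 and Snhg11 from −0.10 to −0.04.

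Several of the RNAs varied together from pool to pool in both groups. In both groups, Malat1, Neat1, Meg3, Snhg11 and Miat were lowest in replicate 4, a pattern of 5 of 7 RNAs and of 10.3% of all tested genes. Malat1, Meg3, Rian, Mirg and Snhg11 were highest in replicate 3 of both groups, as were 7.77% of all tested genes. Malat1, Meg3 and Snhg11 showed both, as did 1.15% of all tested genes. The replicate numbers of these patterns were taken from the values of the 7 RNAs, so the shares are a description and not a test. Over all tested genes, each weighed alike, deviations from the group mean of libraries with the same number correlated by −0.05 to 0.04. These correlations do not show that genes of the table lacked such a link. EdgeR called 713 genes with the replicate block and 244 without.

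**Figure D5:**
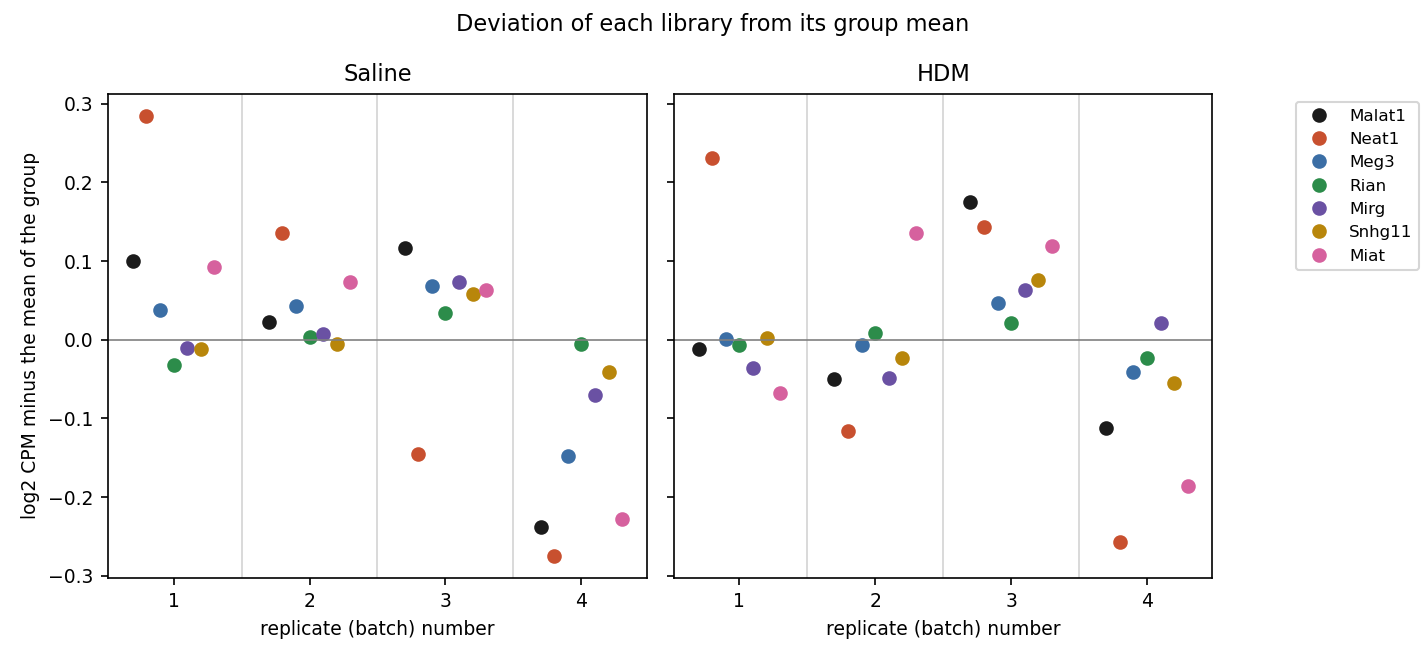
Deviation of each library from its group mean in log2 CPM (vertical axis) by replicate number, which is the batch (horizontal axis), for the 7 RNAs in saline (left) and HDM (right). Replicate 4 is the lowest of both groups for Malat1, Neat1, Meg3, Snhg11 and Miat, and the points of Rian stay near 0 throughout.

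Among the 21 pairs of the RNAs, the Pearson correlations of log2 CPM over the 8 libraries were all positive and ranged widely. They were 0.90 for Malat1 with Meg3, 0.90 for Rian with Snhg11, 0.82 for Meg3 with Miat and 0.75 for Malat1 with Mirg. They were 0.67 for the neighbours Malat1 and Neat1, and 0.05 for Rian with Miat. With the group means taken out, Malat1 with Meg3 had 0.93 and Rian with Snhg11 0.75. All pairs share their libraries and scaling factors, and 8 points give no firm order.

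The genes whose log2 CPM was most like that of each RNA, among 11967 genes of at least 5 CPM over the 8 libraries, were mostly protein-coding. For Malat1 they were Klhl23 (Pearson r 0.96), Fibp and Fam118a, and for Neat1 Rhoj (0.98), Mrpl13 and Myg1. For Meg3 they were Pam16 (0.99), Neil2 and the snoRNA host Snhg20. For Rian they were Zfp260 (0.99) and Brwd1, and for Mirg Trerf1 (0.97), Dcaf17 and the noncoding A330102I10Rik. For Snhg11 they were Ttc14 (0.99), Ccnl1, a cyclin of nuclear speckles, and Riok3, and for Miat Triap1 (0.95), Hdhd5 and the snoRNA host Snhg6. These are the highest of all those correlations over 8 libraries and are given as a description.

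Other long noncoding genes gave few calls as well. GENCODE M21 gives a long noncoding biotype to 9919 genes of the table, and 1479 were tested. EdgeR called 1 higher and 3 lower (0.0676% and 0.203%), and with the block 3 higher and 8 lower (0.203% and 0.541%). A negative log2 fold change was found for 57.2% of them. The higher gene was Gm49227 (log2 fold change 1.72, edgeR adjusted p = 0.0443). The lower ones were A330069K06Rik (−1.62, 0.0327), Gm17597 (−1.64, 0.0487) and A330076H08Rik (−0.46, 0.0448). Apart from A330076H08Rik with 6.78 CPM, these had means under 1 CPM. After the GC correction none of the named genes was called, with edgeR adjusted p of 0.145 to 0.213. With the block and the GC correction these were 0.106 to 0.148. Of the 120 long noncoding genes of at least 10 CPM, 75.8% had a negative log2 fold change, against 50.7% of all 10363 genes of that level. After the GC correction the shares were 66.7% and 46.6%.

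The noncoding genes with the highest mean CPM beside the 7 were Gm42418 with 3385 CPM and 2900097C17Rik, the mouse Norad gene, with 791.8 CPM. C78859 had 311 CPM, Peg13, an imprinted RNA, 288 CPM and 1700020I14Rik 249.8 CPM. Cct6a, which M21 lists with a noncoding biotype, had 200.5 CPM, 1500004A13Rik 143 CPM and Firre, a nuclear RNA of the X chromosome, 133 CPM. 3110039I08Rik and Gm20300 had 125 and 110.1 CPM. With the block edgeR called 3110039I08Rik lower (log2 fold change −0.20, adjusted p = 0.034 with the block, 0.0718 without and 0.292 with the block and the GC correction). Its HDM libraries were all below its saline libraries, as for 4.39% of all tested genes. The log2 fold changes of these 10 lay between −0.21 for Gm42418 and 0.01 for Peg13. Of 20 tested RNAs on a list of other long noncoding RNAs studied in nervous tissue, edgeR called 0, with 4 at an unadjusted p under 0.05, and with the block 1, 1700020I14Rik, as lower. It measured 231.5 ± 17.4 CPM in HDM against 268 ± 17.2 CPM in the saline libraries (log2 fold change −0.21, edgeR adjusted p = 0.0344 with the block and 0.0924 without). With the block and the GC correction it was at −0.13 (0.188). The median of the list was −0.12, and −0.05 after the GC correction. Tug1, a conserved RNA known from the retina, had 92.7 ± 2.78 and 104 ± 6.27 CPM (−0.17, edgeR adjusted p = 0.100), and −0.07 (0.543) after the GC correction. Every HDM library was below every saline library for Tug1, as for 4.39% of all tested genes. Ftx, a regulator of Xist, had −0.22 (0.137) and Mir124a-1hg, a host of the neuronal microRNA miR-124, −0.14 (0.142).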

How the data were processed

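Per the labels' protocols, RNA of vagal ganglia was purified on columns, and libraries from the Illumina stranded mRNA kit were sequenced as paired reads of 50 bp. The deposited values are raw gene counts (whole numbers, not normalised), made with featureCounts on GRCm38 (mm10) per the submitters' processing notes. Aligner, strand setting and versions: not given in the sources used here. How reads matching more than 1 gene were treated is not stated either.

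Of 55335 genes, 55154 had a GENCODE M21 symbol and 54899 the same span there. filterByExpr kept 17618. HDM and saline were compared with edgeR 4.0.16 (R 4.3.3): TMM factors, quasi-likelihood F-test of 2 sides, group as the only term, Benjamini-Hochberg adjustment over all tested genes, threshold 0.05. The script was checked on simulated data. The group fit is the main one, since the labels state no model. The batch label pairs 1 HDM with 1 saline library, and a blocked fit took this replicate number as a further term. Same-numbered libraries correlated by −0.05 to 0.04. The p-values measure spread between pools. Log2 CPM for correlations used a prior count of 2. Genes of like abundance had a mean CPM within a factor of 2 of the RNA's own.

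The 7 RNAs, 7 gene lists and 10 marker lists were chosen with earlier results of these data known. Named genes are the 7 RNAs, the called members of each list or up to 4 with the smallest p, the 3 genes most like each RNA, and the called and 10 most abundant other long noncoding genes. Some genes that this rule takes are not reported here. Nono, Sfpq, Elac2, Acin1, Dlk1, Rtl1, Dio3 and the genes nested in Malat1, Rian and Miat were named after their values were seen. Alternatives were RLE and upper-quartile scaling, size factors without the 7 RNAs, 2 other filters on low counts, DESeq2 1.42.0 and limma-voom (limma 3.58.1) in place of edgeR, the block, corrections for GC content (a natural spline with 4 degrees of freedom per library) and for length, thinned counts, and leaving out each library. The floor of 3 counts covers counting error only. The confidence intervals are those of the edgeR fits and cover the spread between pools.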

Additional observations from a re-analysis of the deposited data

Results flagged for a closer look

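Within a group of 4 libraries, 8 of 94 groups checked held a library further from the others than Dixon's 95% limit allows, and chance alone gives about 1 in 20. In saline replicate 4, Meg3 measured 4211 CPM while the other 3 saline libraries held 4789 to 4891 CPM. In the same library Miat measured 578 CPM, against 707 to 722 CPM. Zc3h13, the m6A writer subunit, was also low there, with 47.6 CPM against 49.7 to 50.1 CPM.

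In HDM replicate 2, Taf15 measured 47.5 CPM, against 41.4 to 41.9 CPM in the other HDM libraries, and Tug1 measured 88.6 CPM, against 93.5 to 94.4 CPM. In saline replicate 2, Mettl14 measured 33.6 CPM, against 35.7 to 36.0 CPM, and the weakly expressed B830012L14Rik measured 0.669 CPM, against 0.957 to 0.974 CPM. In HDM replicate 3 the noncoding gene C78859 measured 316 CPM, against 289 to 294 CPM. None of the other 5 long noncoding RNAs (Malat1, Neat1, Rian, Mirg and Snhg11) had a library beyond the limit.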

How the results depend on the processing

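Over 20 alternatives, 0 of the 7 RNAs were called in any. Neat1 (−0.25 to −0.07), Mirg (−0.07 to −0.02) and Snhg11 (−0.12 to −0.04) kept a negative log2 fold change in all 20. The lowest adjusted p among the 7 was 0.0872, for Rian. The rest changed sign in some, and the cause was not tested. Meg3 was at −0.0074 with upper-quartile factors, −0.0097 without a filter, −0.0025 with at least 1 CPM in 4 libraries, and between −0.047 and 0.026 with 1 library left out. With the GC correction, without and with the block, Malat1 was at 0.0080 and 0.013, Rian at 0.016 and 0.017, and Miat at −0.022 and −0.025. Rian was at 0.0041 with the length correction. Miat ran from −0.034 to 0.099 with 1 library left out. Without HDM replicate 2, Miat was at −0.0062, without HDM replicate 3 Meg3 at −0.011, and without saline replicate 4 Meg3 at −0.047 and Miat at −0.034.

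Of the other named genes, Sf1 was at −0.046 and −0.046 with the GC correction, without and with the block, and from −0.012 (without saline replicate 3) to 0.036 with 1 library left out. 2900097C17Rik was at 0.030 and 0.031, and from −0.052 to 0.014 (without saline replicate 4) with 1 library left out. Cct6a was at 0.0056 and 0.0055, and Peg13 at −0.0078 and −0.0045. Peg13 was also at −0.0024 without a filter, −0.039 without saline replicate 1 and −0.000325 without saline replicate 2, and at up to 0.045 with another library left out. For 40 other named genes, 686 of 796 values kept direction and call, 67 lost a call, 30 gained one and 13 changed sign. Only the genes called in the group fit could lose a call: Smarca4, Begain, Gm49227, A330069K06Rik, A330076H08Rik and Gm17597. Smarca4 was called in 13 of the 20 alternatives and Begain in 6. For Gm49227, A330069K06Rik and Gm17597 DESeq2 gave no adjusted p, and this was counted as a lost call.

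The number of called genes, 244 in the group fit, was 722 without a filter (421 higher, 301 lower), 871 with DESeq2 (603 and 268), 713 with the replicate block (531 and 182), 42 with the block and GC correction, and 0 with the GC correction alone, where edgeR gave 2094 genes at an unadjusted p under 0.05. Leaving out 1 library gave 0 to 376. It was 0 without HDM replicate 1, HDM replicate 2 or saline replicate 3, 60 without HDM replicate 4, 97 without saline replicate 2 and 376 without HDM replicate 3. The difference in library totals ran from −5.11 to −3.64 M counts with 1 library left out. Its exact permutation p was 0.0571 without any 1 HDM library and 0.0286 without any 1 saline library. With signs exchanged within batches, a pairing added after seeing the data, the difference of −4.175 M counts had an exact permutation p of 0.125. The block changed no call among the 7 RNAs. At 925 to 1288 counts per library, Mirg was the least deeply counted of them.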
